A study of Mus musculus with 5 samples.

Results

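The NF-kB subunits and their inhibitors were followed over 5 Affymetrix expression arrays of mouse B lineage cell lines. The members were 10 genes given by name: the subunit genes Nfkb1, Nfkb2, Rela, Relb and Rel, the inhibitor genes Nfkbia, Nfkbib and Nfkbie, the nuclear relative of the inhibitors Bcl3, and Tnfaip3, whose protein switches the pathway off. All probe sets whose current symbol was one of these names were taken. They numbered 12, for 9 of the 10 genes, among 12422 probe sets for 8251 genes on the array. No probe set carried the symbol Nfkb1, so that subunit was not analysed here.

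AxJ, labelled a plasma cell line, that is, of the antibody-secreting stage, was measured as 4 stable transfectants grown in G418, with 1 array each. They carried empty vector, overexpressed the RNA-binding protein hnRNP-H, or overexpressed its relative hnRNP-F as subclones B5 and D6. A20, labelled a memory B cell line, was grown in the same medium without G418 and measured on 1 array. Each line was 1 clone or culture, the hnRNP-F and hnRNP-H clones having been picked by western blot for high expression of the protein, and no treatment was given. Per the design, both hnRNP-F clones had a lower ratio of secreted to membrane immunoglobulin heavy chain mRNA, and empty vector, hnRNP-H and A20 served as controls; the first pair is called the AxJ controls here. The cell line A20 is not to be confused with the protein A20, which is the product of Tnfaip3.

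NF-kB is a family of transcription factors that bind DNA as dimers of Rel family subunits. In resting cells the IκB proteins hold the dimers in the cytoplasm. Signals from antigen, TNF family or Toll-like receptors activate the IκB kinases, the IκB protein is degraded and the dimer enters the nucleus. A slower, alternative route processes the Nfkb2 product and releases it together with RelB. The factor was named after the enhancer of the immunoglobulin kappa light chain gene in B cells. Much of its regulation acts on proteins and their location, which mRNA levels do not show.

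Levels are quantile-normalised intensities, in array units that can be compared between arrays for 1 probe set but not between probe sets. Differences are of log2(intensity + 6.55), the pseudocount being the 20th percentile of all values. A probe set was tested if its highest value was over 21.8, the 40th percentile. Of the 12 member probe sets 9 were tested, for 7 genes. Rel, Tnfaip3 and the second Rela probe set lay under that value on all 5 arrays.

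Promoter windows of several members held matches to the DNA sequence that NF-kB binds. RefSeq promoter windows (build GRCm38.p6, 250 bases before to 50 after an annotated start) were at hand for 8 member genes. The kB consensus, 10 bases long (3 guanines, a purine, any base, an A or T, 2 pyrimidines and 2 cytosines), was searched on both strands with overlapping matches allowed and lay in a window of 6 of these 8 genes, Nfkb2, Rel, Nfkbia, Nfkbie, Bcl3 and Tnfaip3. It lay in no window of Rela or Nfkbib. Of all 32851 windows, 4.51 percent held it, and of all genes with a window, 5.14 percent. A match describes the sequence and does not show a bound site. The stretches below are those of the 4 matching genes that were tested, each read 5′ to 3′ on the strand of the gene, with the matches in capitals. The Nfkbia and Bcl3 matches, and the Nfkb2 match beginning 38 bases before the start, lay only on the opposite strand. Each of these is printed as the reverse complement of a sequence that fits the consensus.
Nfkb2, plus strand, chr19:46304678-46304736: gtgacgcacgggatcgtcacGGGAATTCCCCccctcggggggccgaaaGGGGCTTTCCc
Nfkbia, minus strand, chr12:55492648-55492696: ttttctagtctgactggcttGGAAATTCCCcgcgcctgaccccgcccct
Nfkbie, plus strand, chr17:45555574-45555623: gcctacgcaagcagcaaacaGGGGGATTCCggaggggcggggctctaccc
Bcl3, minus strand, chr7:19822734-19822763: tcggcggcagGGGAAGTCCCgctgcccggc
In this Nfkb2 window, the first of those holding a match, the matches began 39, 38 and 11 bases before the start, the first 2 overlapping. The Nfkbia match began 29 bases and the Nfkbie match 106 bases before the start, while the Bcl3 match spanned bases 3 to 12 after it.

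RNA quality differed between the arrays. The signal at the 5′ end of Gapdh over that at its 3′ end, which falls with RNA breakdown or short labelling products, was low on the B5 (0.181) and empty vector (0.212) arrays, 0.384 on the A20 array and higher on those of D6 (0.683) and hnRNP-H (0.866). The labelled cell types were checked by marker genes in A20 against the AxJ controls. Of 9 B cell markers tested 5 were called higher and none lower, and of 7 plasma cell markers 4 were called lower and none higher. Of those called, Cd22, Spib and H2-Aa passed the filter only through A20, and Prdm1 and Fkbp11 only through the AxJ lines. The filter fixed the direction of these genes. The check therefore rests on Ms4a1 (log2 difference 4.82), Pax5 (2.86), Jchain (-1.60) and Igha (-7.24). Among the markers not called were Ciita (-0.17) and Sdc1 (-0.36). Summed levels of markers of other cell types ran from 211 to 430 for 8 myeloid and from 60.7 to 131 for 7 T cell markers. They ran from 343 to 629 for 7 stromal and from 109 to 162 for 3 erythroid markers. Not all single markers were dim: Col1a2 read from 233 to 429 and Cd14 from 84.9 to 251. Such sums compare arrays only and do not show that other cell types were absent. B5 had the highest myeloid, T cell and stromal sum. All values in the table are above 0, so none of these markers was listed at 0.

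**Figure D1:**
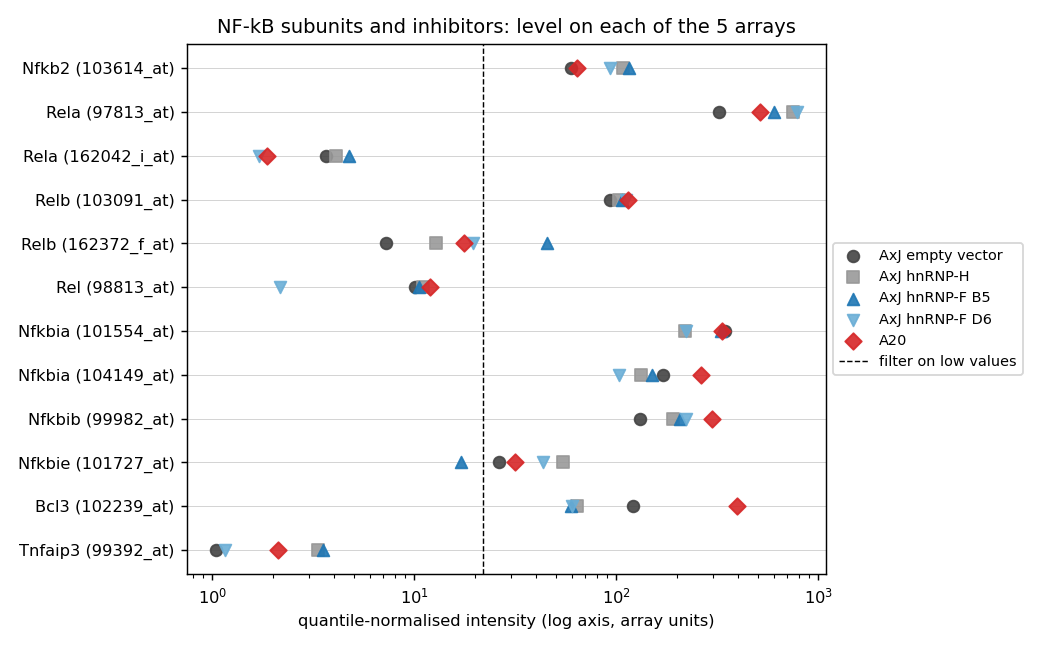
Quantile-normalised intensity (log axis) of the 12 member probe sets on the 5 arrays, 1 point per array. The dashed line is the filter at 21.8; Bcl3 is the probe set whose A20 point (397) stands farthest to the right of its AxJ points (59.5 to 121), while the second Rela probe set, Rel and Tnfaip3 lie wholly left of the line.

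Bcl3 separated A20 from the plasma cell line. Its protein is an atypical member of the IκB family that works in the nucleus on dimers of the Nfkb1 and Nfkb2 products and was found at a chromosomal translocation in B cell leukaemia. The Bcl3 intensity was 397 on the A20 array, and 121, 64.2, 59.5 and 60.3 on those of empty vector, hnRNP-H, B5 and D6. A20 thus stood above all AxJ arrays, 3.27-fold over the highest of them, and empty vector stood above the other 3 AxJ arrays. Bcl3 rose in A20 by 2.08 on the log2 scale against the mean of the AxJ controls (SE 0.46, 1 array against 2, limma adjusted p = 0.0341), with a 95 percent interval from 2.06-fold to 8.73-fold. It was the only one of the 9 member probe sets called, against 5.89 percent of all 9107 probe sets tested in either direction and 2.90 percent upward. With 9 members tested, 1 call is near that background. The call was lost without hnRNP-H (log2 difference 1.66, adjusted p = 0.0550), without B5 (adjusted p = 0.0954) and without D6 (adjusted p = 0.0834), but kept without empty vector (2.51, adjusted p = 0.0318). Against hnRNP-H and D6 alone, the arrays of higher Gapdh ratio, the difference was 2.55 (adjusted p = 0.000317), and against empty vector and B5 alone it was 2.13 (adjusted p = 0.106), a pair of comparisons chosen after the data were seen. Against hnRNP-H and D6 alone, 1709 of all 9107 probe sets were called, beside 536 as reported. The spread within the A20 line was not measured.

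**Figure D2:**
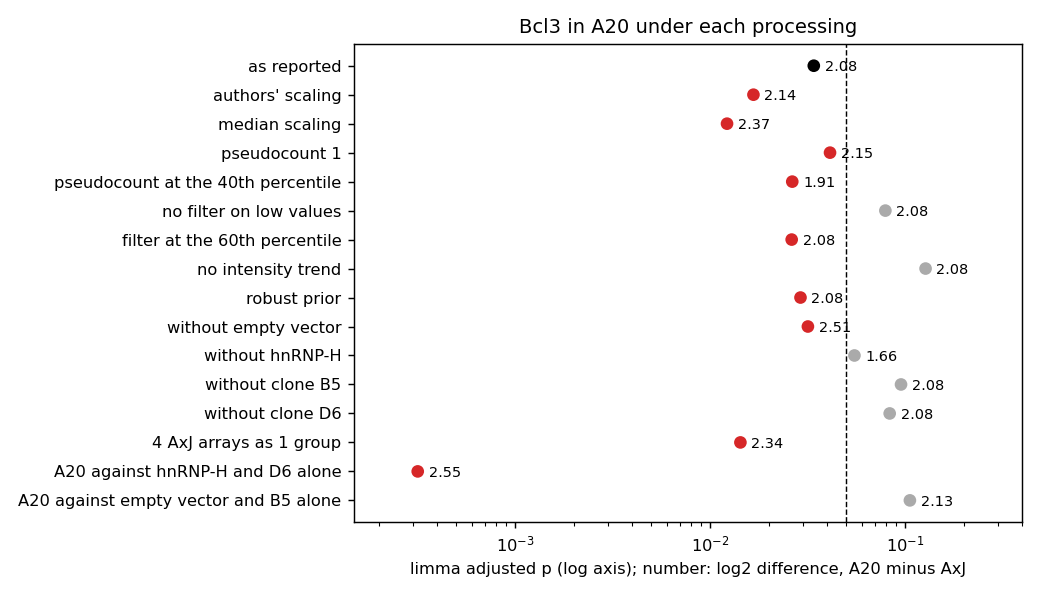
Limma adjusted p (log axis) of Bcl3 in A20 under each processing, with the log2 difference printed beside each point and the threshold of 0.05 dashed. Black marks the value as reported, red the alternatives that kept the call and grey those that lost it; the difference stayed between 1.66 and 2.55.

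The pattern of Bcl3 over the 5 arrays was most like those of H2-Ob, which encodes a class II related chain of B cells, and Agfg1. Likeness was the distance between log2 values centred on the mean of each probe set, which was 0.31 for H2-Ob and 0.38 for Agfg1 over 5 arrays. H2-Ob read 59.5 in A20 and from 4.23 to 14.4 in the AxJ lines, all of the latter under the filter. It thus entered the search only through A20, and its distance is set in part by the pseudocount. Agfg1 read 220 in A20 and from 38.8 to 92.2 in the AxJ lines. As with Bcl3, empty vector was the highest of the AxJ arrays for both, an order favoured by their choice for likeness to Bcl3. For H2-Ob this order is among values under the filter. Bcl3 was the only member probe set whose log2 values spanned 2 or more, the limit set for this search.

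The classical inhibitors gave smaller differences. Nfkbib, which encodes IκB beta, gave intensities of 131, 190, 207 and 222 on the empty vector, hnRNP-H, B5 and D6 arrays and 296 on that of A20. A20 was the highest array and empty vector the lowest. The difference of A20 from the controls was 0.88 (SE 0.37, unadjusted p = 0.0442 in limma, adjusted p = 0.242), so it did not pass after adjustment, with a 95 percent interval from 1.02-fold to 3.33-fold.

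Nfkbia encodes IκB alpha, the inhibitor that NF-kB itself induces in a negative feedback loop, and had 2 probe sets. The brighter one gave 343 (empty vector), 328 (B5), 221 (D6), 218 (hnRNP-H) and 333 (A20). It was higher on both AxJ arrays of low Gapdh ratio than on both of high ratio, and A20 lay inside the AxJ range. How many of all probe sets split the AxJ arrays in this way was not counted. No such split is therefore read as a result about the members. The dimmer one gave 169 (empty vector), 151 (B5), 102 (D6) and 132 (hnRNP-H), but 262 (A20), above all AxJ arrays. Both AxJ arrays of low ratio again lay above both of high ratio, and the part of RNA quality in this was not tested. Differences of A20 from the controls were 0.28 for the first (SE 0.41, limma adjusted p = 0.786) and 0.78 for the second (SE 0.40, limma adjusted p = 0.337). Set against hnRNP-H and D6 alone, where the dimmer probe set read lowest, the second difference was 1.13 (limma adjusted p = 0.0206). Set against empty vector and B5 alone it was 0.69 (adjusted p = 0.658). Both pairs were chosen after the data were seen. Against hnRNP-H and D6 alone, 1709 of all 9107 probe sets were called, beside 536 as reported.

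Nfkbie encodes IκB epsilon and was dim. Its intensity was 17.0 on the B5 array, 26.2 for empty vector, 31.5 for A20, 43.5 for D6 and 54.2 for hnRNP-H. The arrays of low Gapdh ratio lay below those of high ratio, the reverse of Nfkbia, and A20 fell between them. Its difference in A20 was -0.23 (SE 0.66, limma adjusted p = 0.904), and its interval, from 0.298-fold to 2.44-fold, was wide.

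None of the subunits was called in A20. Rela, which encodes the transactivating subunit of the classical dimer, gave 322 with empty vector, 753 with hnRNP-H, 604 and 781 in the B5 and D6 clones, and 517 for A20. Both arrays of low Gapdh ratio lay below both of high ratio, empty vector lowest, and A20 lay inside the AxJ range. The share of all probe sets split in this way was not counted, and the part of RNA quality was not tested. The difference from the controls was 0.07 (SE 0.48, limma adjusted p = 0.966), and without empty vector it was -0.54 (adjusted p = 0.421). Its second probe set read from 1.70 to 4.74 over the AxJ lines and 1.87 in A20, too dim to test.

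Relb encodes the subunit that pairs with the Nfkb2 product in the alternative route. Its brighter probe set was the steadiest of the members tested, with intensities of 92.5, 103, 107 and 111 on the empty vector, hnRNP-H, B5 and D6 arrays and 114 on that of A20. From the lowest to the highest array its log2 values spanned 0.28. A20 was the highest array, but the difference of 0.21 (SE 0.38, limma adjusted p = 0.836) did not pass, with an interval from 0.632-fold to 2.11-fold. The dimmer Relb probe set gave 7.22, 12.7, 45.4 and 19.5 on the same AxJ arrays and 17.6 for A20. Its A20 difference was 0.57 (SE 0.72, limma adjusted p = 0.744). It passed the filter only through B5, the array with the highest sums of myeloid, T cell and stromal markers, whose part in this value was not tested. The 2 Relb probe sets disagree: the brighter does not set B5 apart.

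Nfkb2 encodes the precursor of the alternative route. Its intensity was 59.6 with empty vector and 63.8 in A20, and 92.9, 108 and 115 on the D6, hnRNP-H and B5 arrays. The A20 and empty vector values were close to each other and the other 3 higher. The difference of A20 from the controls was -0.31 (SE 0.47, limma adjusted p = 0.796), and it was 0.09 without hnRNP-H (adjusted p = 0.931).

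Rel encodes c-Rel, a subunit known from lymphoid cells. Its intensity was 10.1, 10.98, 10.5 and 2.16 with empty vector, hnRNP-H, B5 and D6, and 12.0 for A20. Tnfaip3, a target of NF-kB whose protein edits ubiquitin chains on signalling adaptors, gave 1.05, 3.34, 3.53 and 1.16 on those AxJ arrays and 2.11 for A20. Both stayed under the filter on all arrays, so no difference is given and the deposited table does not say whether the transcripts were detected.

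Of the 9 member probe sets tested 7 lay above 0 in A20, with a median log2 difference of 0.28, beside -0.04 for all probe sets tested. Nfkbia and Relb each count with 2 probe sets, and the dimmer Relb one passed the filter only through B5. Over the alternatives, Rela changed sign in 3 and the brighter Nfkbia and dimmer Relb probe sets in 2 each. No shift of the members as a group is claimed. A20 lay outside the range of the 4 AxJ arrays for 4 of 9 (the brighter Relb and the dimmer Nfkbia probe set, Nfkbib and Bcl3, above it in each case), against 54.9 percent of all probe sets tested. The 4 member probe sets outside the range were all higher, but the share itself was below the background.

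**Figure D3:**
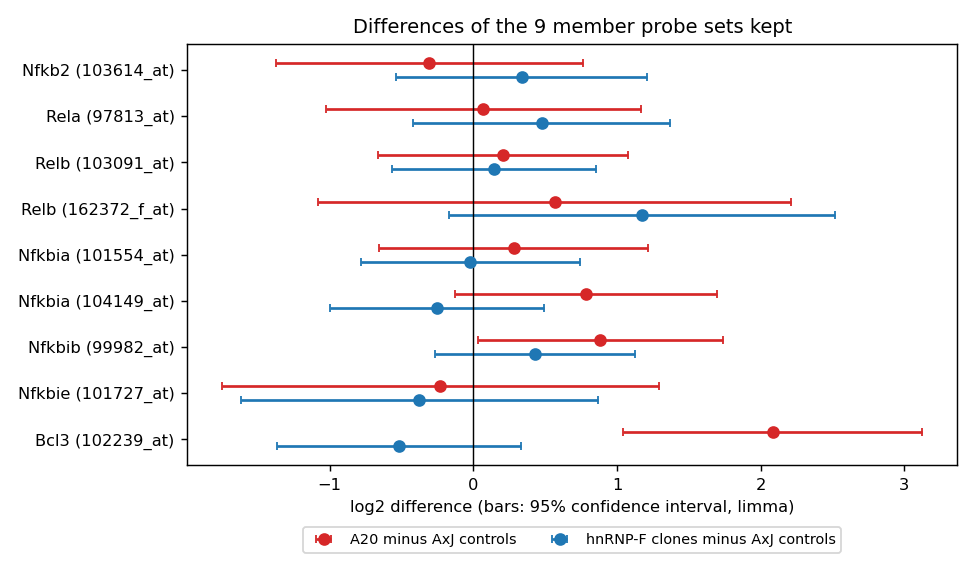
Log2 differences of the 9 member probe sets tested, for A20 (red) and the hnRNP-F clones (blue) against the AxJ controls, with 95 percent confidence intervals from limma. In A20 the intervals of Bcl3 and Nfkbib lie above 0, and only Bcl3 passed after adjustment; every hnRNP-F interval crosses 0.

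No member was called in the hnRNP-F clones against the AxJ controls. The limma fit called 0 of 9 member probe sets and 0.0110 percent of all 9107, and 0 of 9 had an unadjusted p under 0.05, against 527 of all probe sets. The largest difference was that of the dimmer Relb probe set, at 1.17 (SE 0.59, limma adjusted p = 0.790), which passed the filter only through B5 and was 0.68 without that array. Bcl3 lay below both control values in B5 and in D6, with a difference of -0.52 (SE 0.37, limma adjusted p = 0.803). It was -0.09 without empty vector and -0.95 without hnRNP-H, so its size depended on which control was kept. Nfkbib differed by 0.43 (SE 0.30, limma adjusted p = 0.801), Rela by 0.47 (SE 0.39), Nfkb2 by 0.34 (SE 0.38) and the brighter Relb probe set by 0.14 (SE 0.31). Nfkbie differed by -0.38 (SE 0.54), and the Nfkbia probe sets by -0.02 (SE 0.33, brighter) and -0.25 (SE 0.33, dimmer). The B5 and D6 values lay together outside those of the controls for the brighter Relb probe set and Nfkbib (above) and for Bcl3 (below), 3 of the 8 member probe sets that did not owe their place in the test to B5. Of all probe sets tested this held for 37.6 percent, a share that includes probe sets kept only through a clone. Counted in that way, with the dimmer Relb probe set, the members gave 4 of 9. The intervals allow changes of over 2-fold for several members, among them Rela (log2 interval from -0.42 to 1.37) and Bcl3 (from -1.37 to 0.33), so the result does not show that their levels were alike.

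Between the AxJ arrays without replicates no test was made. In hnRNP-H against empty vector, Rela was the one member past 2-fold on the log2 scale with the pseudocount, at 1.21, against 18.1 percent of all probe sets past 2-fold in either direction. Nfkbie (0.89) and Nfkb2 (0.79) were higher and Bcl3 (-0.86) and the brighter Nfkbia probe set (-0.64) lower in the hnRNP-H line. In D6 against B5, Nfkbie was past 2-fold, at 1.08, against 12.0 percent of all probe sets, and the dimmer Relb probe set differed by -0.997. In both comparisons the second array named had the lower Gapdh ratio, so line and RNA quality cannot be told apart. The comparisons of A20 and of the hnRNP-F clones share the controls, so their differences are not independent of each other.

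Around the members, the pathway was read from 5 lists with 1 probe set per gene. Each count of calls in A20 is to be read against the 5.89 percent called over all probe sets tested, and nothing is claimed as particular to a list; 1 of 16 genes is near that share. Among the ligands, 2 of 6 genes tested rose in A20 and none fell. No A20 median is given for the ligands, the receptors or the kinases and adaptors. Il18, Il1a, Il1b, Tnfrsf17, Il1r1 and Ikbke in these lists passed the filter only through AxJ arrays. Ltb, which encodes lymphotoxin beta, rose by 5.78 (SE 0.60, limma adjusted p = 0.00137). Its intensity was 2115 in A20, 29.8 and 34.6 with empty vector and hnRNP-H, and 141 and 42.7 in B5 and D6. Tnf rose by 4.003 (SE 0.75, limma adjusted p = 0.0201), to 227 against control intensities of 5.21 and 11.6. The control values lay under the filter, so the size of this difference is set in part by the pseudocount: it was 4.69 with a pseudocount of 1 and 3.05 with one at the 40th percentile. The Tnf call was lost without the filter (adjusted p = 0.0559), without the intensity trend (0.0765), without empty vector (0.0738) and against empty vector and B5 alone (0.0550). The brighter Lta probe set differed by 0.11, but a second one was called at 5.195 (limma adjusted p = 0.00106). Of 9 receptor genes none was called. Cd40, a TNF receptor family member that activates both routes in B cells, read 2.28 in empty vector and 16.4 in hnRNP-H against 115 in A20 (log2 difference 3.09, limma adjusted p = 0.0577), and was called under 5 of 15 alternatives, the authors' scaling and median scaling among them. Both Cd40 control values lay under the filter, and its difference was 3.94 with a pseudocount of 1 and 2.17 with one at the 40th percentile. Tnfrsf17, the plasma cell receptor BCMA, differed by -1.21 (limma adjusted p = 0.204). It read 21.5 in A20, under the filter, and passed only through the AxJ lines, so its direction was fixed by the filter. The difference was -1.40 with a pseudocount of 1 and -0.89 with one at the 40th percentile.

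Among 16 kinases and adaptors tested, 1 rose in A20 and none fell. Prkcb, the protein kinase C that links the B cell receptor to the IκB kinases, rose by 5.91 (SE 0.54, limma adjusted p = 0.000733), to 3550 against control intensities of 46.4 and 59.5, and a second probe set was called at 3.80. Of 13 genes for other inhibitors and ubiquitin steps none was called (median 0.56), with Ube2n, a ubiquitin-conjugating enzyme of the pathway, at 1.07 (limma adjusted p = 0.0920) and Skp1, a subunit of the ligase for IκB, at -1.08 (adjusted p = 0.198).

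Of 29 target genes tested, 3 fell in A20 and none rose; no median is given, since Cxcl10 and Fas passed the filter only through A20. Myc fell by 3.01 (SE 0.29, limma adjusted p = 0.00105), to 186 against control intensities of 1477 and 1629. Ier3, an early response gene, fell by 2.29 (SE 0.50, limma adjusted p = 0.0333). It read 10.7 in A20, under the filter, against control intensities of 65.0 and 92.6, and passed the filter only through the AxJ lines. Its direction was thus fixed by the filter and its size set in part by the pseudocount. The difference was -2.75 with a pseudocount of 1 and -1.62 with one at the 40th percentile. Irf4, a regulator of plasma cells, fell by 1.94 (SE 0.42, limma adjusted p = 0.0330). The Ier3 call was lost when any 1 AxJ array was left out and the Irf4 call without hnRNP-H, B5 or D6, and both were lost without the filter, without the intensity trend and against empty vector and B5 alone. Irf4 was also not called under median scaling (adjusted p = 0.0743). Under the authors' scaling 6 target genes were called, and without the intensity trend, without B5 or without D6 only Myc was. All of these targets answer to other factors as well.

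**Figure D4:**
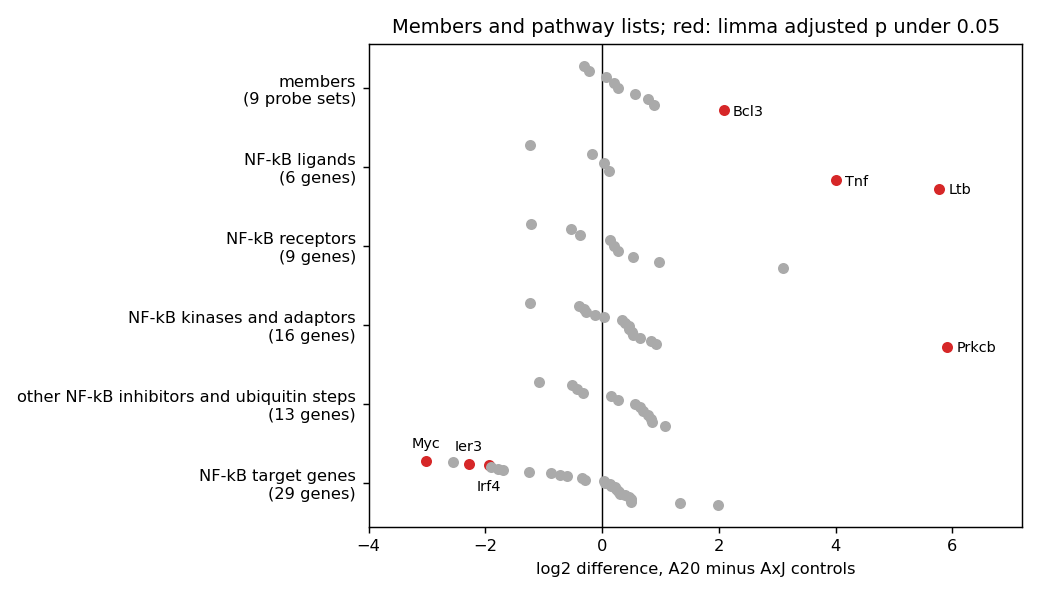
Log2 difference of A20 from the AxJ controls for the member probe sets and for the genes of 5 pathway lists, 1 point each, with those of limma adjusted p under 0.05 in red and named. Ltb (5.78), Tnf (4.003, a value that moves with the pseudocount) and Prkcb (5.91) stand far to the right, Bcl3 is the red member at 2.08, and the red target genes lie to the left.

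In the hnRNP-F clones no gene of the 5 lists was called. The medians were -0.04 for 16 kinases and adaptors and 0.05 for 13 other inhibitors and ubiquitin steps. No count or median is given for the other 3 lists, since Il1a, Il1b, Il1r1, Xiap, Ccl4 and Cxcl1 passed the filter only through the clones. Ltb differed by 1.14 (SE 0.49) and read highest in B5 among the AxJ arrays, its difference being 0.35 without B5. Il1a differed by 1.12 (SE 0.69), and by 0.34 without B5. Among receptors Ltbr differed by 1.46 (SE 0.52). Both Ltbr control values, 20.7 and 7.93, lay under the filter. Its difference was 1.81 with a pseudocount of 1 and 0.98 with one at the 40th percentile. Tnfrsf1a differed by 1.11 (SE 0.65), resting on the low hnRNP-H value of 11.2, against 68.1 with empty vector. The Tnfrsf1a difference was 0.07 without hnRNP-H and 2.15 without empty vector. Tank, an adaptor of TRAF proteins, differed by -1.09 (SE 0.35) and Ikbkg, the regulatory subunit of the IκB kinase, by -0.98 (SE 0.36). Tax1bp1, a partner of the Tnfaip3 protein, differed by -0.72 (SE 0.28) and Cul1 by -0.58 (SE 0.29). The target genes Ccl22 and Birc3 differed by -1.70 (SE 0.39) and -1.21 (SE 0.32), and for each gene the B5 and D6 values lay under both control values. They were named for a large statistic in this comparison, so that order follows in part from the choice. Of all probe sets tested, 37.6 percent had both clones on 1 side of both controls. Limma adjusted p for these 10 genes was 0.790 to 0.795.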

How the data were processed

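One array was measured per culture. The authors' deposited intensity values are linear, 1 per probe set and array. Per the deposited values, they had been scaled to a mean of about 150 after trimming 2 percent at each end. Which software made them is not given in the sources used here. Detection calls were not used. After leaving out 66 control probe sets, the arrays were quantile normalised, and limma 3.58.1 in R 4.3.3 (lmFit, eBayes with intensity trend) was fitted across all 9107 probe sets kept, over 5 arrays with 3 coefficients (A20, AxJ controls, hnRNP-F clones). This left 2 residual degrees of freedom and a prior of 6.46. P-values are two-sided, adjusted by Benjamini-Hochberg over all probe sets kept, with a threshold of 0.05. The labels do not describe separate cultures within a line. A p-value therefore reflects only how these arrays vary, and for A20, with 1 array, the spread of the AxJ lines is used. For single values, 2 arrays against 2 allow no exact p below 1 in 3. The procedure was tested on simulated data. There A20 was drawn with the spread of the fit, so the simulation cannot test the unmeasured spread within the A20 line.

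Symbols come from the platform annotation, updated by gene identifier to RefSeq names. Of all probe sets, the control ones included, 10855 had 1 symbol, 396 several and 1237 none. The members and the lists were chosen with earlier results of these data known. All member probe sets were named. In a list each gene was represented by its brightest probe set, and genes past the threshold were named, otherwise the 2 with the largest moderated statistic. Alternatives covered scaling, pseudocount, filter, spread model, grouping and single arrays left out, and those for the lists were added after the data were seen.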

Additional observations from a re-analysis of the deposited data

How the results depend on the processing

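The count of member probe sets called in A20, 1 as reported, was 0 without the filter on low values, 0 without the intensity trend, and 0 to 1 with 1 AxJ array left out. It was 2 against hnRNP-H and D6 alone (Bcl3 and the dimmer Nfkbia probe set) and 0 against empty vector and B5 alone, both chosen after seeing the data. In the other 7 alternatives it was 1, and for the hnRNP-F clones it was 0 in all 12. Bcl3 had an adjusted p of 0.0793 without the filter, 0.127 without the trend, and from 0.000317 to 0.127 over 15 alternatives. Of 239 repeated member values 19 changed sign, none of them called; the cause was not tested. For A20 with 1 AxJ array left out, Nfkb2 ranged from -0.70 to 0.089, Rela from -0.54 to 0.67, the brighter Nfkbia probe set from -0.041 to 0.60 and Nfkbie from -0.67 to 0.22. With the 4 AxJ arrays as 1 group Rela gave -0.17 and the dimmer Relb probe set -0.020. Against hnRNP-H and D6 Rela gave -0.56. Against empty vector and B5 the dimmer Relb probe set gave -0.15, the brighter Nfkbia probe set -0.0086 and Nfkbie 0.45. For the clones with 1 array left out, Nfkb2 ranged from -0.061 to 0.73, Rela from -0.13 to 1.08, Nfkbie from -0.92 to 0.17, Bcl3 from -0.95 to -0.09, the brighter Nfkbia probe set from -0.34 to 0.30 and the dimmer from -0.52 to 0.011. The brighter also gave 0.00061 under the authors' scaling and 0.016 under median scaling. Over the alternatives, 1 to 2 ligand, 0 to 1 receptor, 1 to 4 kinase or adaptor, 0 to 3 other inhibitor and 1 to 8 target genes were called in A20. Over all probe sets, 536 were called in A20, but 311 without the filter, 145 without the trend, 245 without B5, 256 without D6, 1709 against hnRNP-H and D6 and 214 against empty vector and B5. The median of all probe sets in A20 was -0.04 as reported, -0.14 under the authors' scaling and 0.07 under median scaling, where 364 probe sets were called higher and 193 lower. Having so few arrays limits the precision, and the dim probe sets (Nfkbie, the second Relb) had the widest intervals. No paired analysis was possible because the labels give no shared replicate numbers.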
